A study of Mus musculus with 6 samples.

Results

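Of 74091 barcodes in 6 libraries of CD11b+ bone marrow cells, 480 (0.648%) held 6000 or more genes with at least 1 unique molecular identifier (UMI, the tag that counts an RNA molecule) and were absent from the cells that the study kept. They made up 11.1% of the 4315 barcodes that were removed, and they are called the removed high-gene barcodes here. They were chosen by 2 measured values, the number of genes and the absence from the kept cells, so their gene number, depth and difference from kept cells are descriptions without a test. The comparison between the 2 skeletal sites did not enter that choice and was tested.

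A droplet barcode with very many genes can hold a large or actively dividing cell, or the RNA of more than a single cell. In marrow, granulocyte precursors load primary granules first, with myeloperoxidase (Mpo) and neutrophil elastase (Elane), then fill secondary granules with proteins such as lactoferrin (Ltf) and cathelicidin (Camp), and stop dividing as they mature. Kit is the stem cell factor receptor of early progenitors, and Mki67 is a nuclear protein of dividing cells. Monocytes, osteoclasts, macrophages, megakaryocytes, erythroid cells, B cells and stromal cells share the marrow, and the erythroid, B lineage and stromal cells among them largely lack CD11b.

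Marrow had been taken from the femur and the mandible of C57Bl/6J mice aged 2 months, and cells carrying CD11b, the integrin encoded by Itgam, had been enriched on magnetic beads, with 3 libraries per site. The labels describe flushing of femurs and tibiae for the femur group, whereas the study's methods name femurs, and mandibles were flushed after the molars had been pulled. Femur replicate 1 was female and the other 5 libraries were male. Neither the labels nor the methods give the number of mice behind a library, so the p-values measure the spread between these libraries, which may be technical.

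The removed high-gene barcodes numbered 67, 41 and 101 in femur replicates 1 to 3, of 12587, 12035 and 23233 barcodes. In mandible replicates 1 to 3 they numbered 38, 80 and 153, of 8920, 9132 and 8184 barcodes. Their share of the library was thus 0.532%, 0.341% and 0.435% in the femur, and 0.426%, 0.876% and 1.87% in the mandible. Mandible replicate 3 had the highest share, with a 95% Wilson interval of 1.60% to 2.19%, and mandible replicate 1 lay within the femur range. Femur libraries averaged 0.436% ± 0.0958 and mandible libraries 1.06% ± 0.739 (SD, n = 3 for each), a difference of 0.621 percentage points that did not exceed the spread between libraries (2-sided exact permutation test, p = 0.3). The smallest p that 3 against 3 libraries can give is 0.10. Without mandible replicate 3 the difference was 0.215 points, and without mandible replicate 1 it was 0.937 points. These barcodes carried 1.90% to 3.51% of all UMIs in the femur libraries and 2.40% to 10.4% in the mandible libraries.

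**Figure D1:**
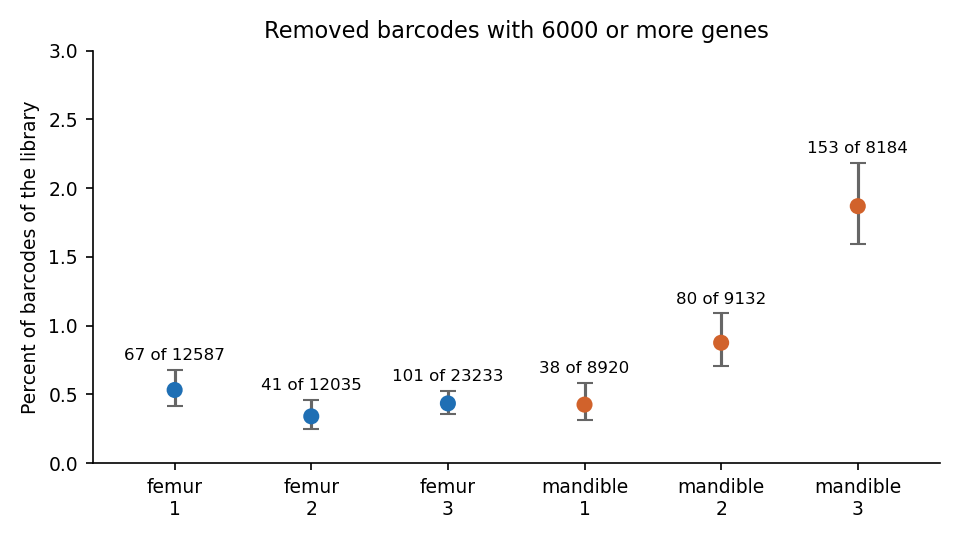
Percent of each library's barcodes that were removed and had 6000 or more genes (y axis), for the 3 femur libraries (blue) and the 3 mandible libraries (orange); bars are 95% Wilson intervals, which cover counting error only. Mandible replicate 3 stands highest at 1.87%, and mandible replicate 1 at 0.426% lies among the femur libraries.

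Genes per barcode ran from 6002 to 9286 with a median of 6561.5, and 123 barcodes had 7000 genes or more. UMIs ran from 26536 to 169324 with a median of 57821, against a median of 7901.5 in the kept cells. The mitochondrial share reached 14.9% at most, under the limit of 20% that the study set, and only 3 kept cells had 6000 or more genes in the matrices. Within 100 genes on either side of that limit lay 57 removed barcodes and 80 kept cells, and transcripts of 6 secondary granule genes together reached 73584 and 73666 UMIs per 1000000 UMIs (CPM), respectively. A list of primary granule genes summed to 3245 and 2610 CPM, and a list of monocyte genes to 1403 and 1595 CPM. The 1445 kept cells with at least 5000 genes and fewer than 6000 were the nearest in gene number and serve below as the neighbouring kept cells. After every barcode was thinned at random to 20000 UMIs, which left out 9 of those kept cells, the removed barcodes held a median of 4371.5 genes and the neighbouring kept cells 4112. Between 15 and 73 barcode sequences were shared by each pair of libraries, 7 of the 480 removed high-gene barcodes occurred in a second library, and none was a removed high-gene barcode in both. No doublet caller was run.

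The genes that mark early granulocytes were present in only part of these barcodes. Mpo UMIs were found in 174 of 480 (36.2%) and Elane UMIs in 238 (49.6%), and 10 or more UMIs of both were found in 76. At least 1 UMI of Mki67 was present in 441 (91.9%), of Kit in 270 (56.2%) and of Itgam in 449 (93.5%). In the erythroid-like barcodes described below, which should lack the granule genes, Mpo was seen in 0 of 21, which allows a share of up to 14.3% of barcodes with a UMI, and Elane in 2 of 21, at a median depth of 51181 UMIs. Only 95 barcodes carried UMIs of Mpo, Elane, Mki67 and Kit together, whereas 214 (44.6%) carried neither Mpo nor Elane, and 182 of those 214 had Mki67. Mki67 was present at 10 or more UMIs in 379 (79.0%), and the 8 genes of the primary granule list together reached 10 UMIs in 399 (83.1%). That list includes the transcription factors Cebpe and Gfi1, so the count is not one of Mpo or Elane. All 57 barcodes of subset 5, described below, reached it. There Fcnb stood at 427 and Cebpe at 356 CPM, but Mpo at 2.77 and Elane at 6.55 CPM. The pooled Mki67 level of 381 CPM compares with 5.22 to 7.99 CPM in the kept mature neutrophil clusters 1 to 3, where a barcode of this depth could still hold a UMI.

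The neighbouring kept cells lay mostly in the deposited clusters 4 (45.5%) and 5 (39.9%), the granulocyte precursor and monocyte clusters. Mpo measured 408 CPM over all removed high-gene barcodes and 275 CPM in the neighbouring kept cells, and Elane 722 and 744 CPM. Mki67 measured 381 and 411 CPM, Kit 26.2 and 20.6 CPM, and Itgam 638 and 635 CPM. After thinning, Mki67 UMIs were found in 90.0% of the removed and 81.6% of the kept barcodes, Mpo in 27.7% and 19.4%, and Kit in 33.8% and 27.4%.

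Mpo in the removed high-gene barcodes measured 387, 787 and 372 CPM in femur replicates 1 to 3 and 337, 329 and 414 CPM in mandible replicates 1 to 3. Femur replicate 2 was highest and the other 5 libraries lay close together. Elane, the protease of the same granules, measured 397, 1261 and 946 CPM in the femur and 491, 536 and 749 CPM in the mandible, again with overlapping sites. Mki67 measured 421, 510.5 and 390 CPM in femur libraries but only 290, 352 and 364 CPM in mandible libraries, so that its sites did not overlap. Over all 11502 genes tested, 6.37% had sites that did not overlap. Kit lay between 21.7 and 41.1 CPM in all 6 libraries. The log2 fold change of mandible over femur was -0.37 ± 0.30 (SE) for Mpo, -0.45 ± 0.45 for Elane, -0.30 ± 0.25 for Mki67 and -0.14 ± 0.21 for Kit, and none passed the edgeR quasi-likelihood test (adjusted p 0.9997 for each).

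Clustering of the 480 barcodes on their own counts gave 9 subsets, numbered by size, and the genes that lead them were used to form them. Of these, 5 subsets held 359 barcodes (74.8%) and were rich in neutrophil granule transcripts, and 4 held the remaining 121. The deposited clusters of kept cells are a separate numbering, from 0 to 8.

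Subset 1, with 89 barcodes, was led by Adgre4, an adhesion receptor of myeloid cells, at 6.06 times its level in the other removed high-gene barcodes. Cd36, a scavenger receptor, was 5.40 times and Ace, the angiotensin-converting enzyme, 5.37 times as high. Of the monocyte markers, Csf1r had UMIs in all 89 barcodes and Cx3cr1 in 82, at 114 and 85.6 CPM. F13a1 and Ccr2 measured 20.7 and 63.2 CPM, against 1159 and 477 CPM in the monocyte-like subset 4 described below. The secondary granule genes nevertheless made up a median of 7.76% of the UMIs of subset 1, and Mpo was low at 35.8 CPM, so no cell type name was given.

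Subset 2, with 82 barcodes, had the highest summed level of the 8 genes of the primary granule list among the granule-rich subsets, at 6597 CPM. Elane was 4.67 times, Ms4a3 3.34 times, Fcnb (ficolin B) 3.30 times and Prtn3 (proteinase 3) 2.99 times as high as in the others. Mpo reached 786 CPM and Elane 2045 CPM, against 249 and 934 CPM in the kept cells of cluster 4, the deposited cluster led by cycling precursor genes. All 82 barcodes held Mki67 UMIs. Its secondary granule share was a median of 9.38%, so transcripts of both granule stages stood in the same barcodes.

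Subset 3, with 70 barcodes, was led by Fn1 (fibronectin) at 2.31 times and Ms4a8a at 1.98 times, and by the mature neutrophil gene Retnlg at 1.85 times. Monocyte and neutrophil genes both lead it, and it stays without a name.

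Subset 4, with 61 barcodes, was monocyte-like by its leading genes F13a1 (coagulation factor XIII), Fn1, the chemokine receptor Ccr2 and Ms4a6c, which were 10.2, 10.2, 7.21 and 6.96 times as high as in the other barcodes. The 10 monocyte markers together reached 5117 CPM. Mpo at 465 CPM and Elane at 1109 CPM were also present, and the secondary granule share was a median of 3.75% with 49 of 61 barcodes at 1% or more.

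Subset 5, with 57 barcodes, was led by genes of mature neutrophils but kept the RNA of earlier granules, and it was not named. The inflammatory cytokine Il1b was 3.58 times and its decoy receptor Il1r2 2.98 times as high as elsewhere, beside Ptgs2 at 3.42 times and Acod1 at 3.05 times. Mpo and Elane were nearly absent at 2.77 and 6.55 CPM, and 52 of the 57 barcodes had Mki67 UMIs. Its secondary granule share was a median of 7.87%, against medians of 0.347% to 1.93% in the kept mature neutrophil clusters 1 to 3 and 10.0% in cluster 0.

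Subset 6, with 45 barcodes, held the highest Mpo of the 9 subsets at 2600 CPM, and Elane at 2178 CPM. Unlike the granule-rich subsets, its secondary granule share was a median of 0.066%, and 33 of its 45 barcodes lay under 0.2%. It also held nearly all Cd34, a surface protein of early progenitors, at 94.1 CPM in 34 of 45 barcodes, against 8 barcodes in the other subsets. Kit measured 74.5 CPM, Meis1, a stem and progenitor transcription factor, 168 CPM and Myb 218 CPM. Its leading genes by fold were Itga2b (integrin αIIb) at 119 times and Ctla2a at 108 times. Of the monocyte markers, Irf8 was the highest of the subsets at 237 CPM, in 31 of 45 barcodes, and F13a1 measured 389 CPM. Ccr2 and Csf1r stood at 60.8 and 37.5 CPM, and the 10 monocyte markers together reached 1773 CPM, against 5117 CPM in subset 4. Granulocyte, monocyte and megakaryocyte markers were thus all present, so it was not named. By the granule genes, 20 barcodes had at least 10 UMIs of both Mpo and Elane together with a secondary granule share under 0.2%, and all 20 were in subset 6. They numbered 1, 5 and 3 in femur replicates 1 to 3 and 2, 4 and 5 in mandible replicates 1 to 3, and they combine early granule genes with little, though not absent, RNA of later granules.

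A few barcodes of subset 6 carried the platelet and megakaryocyte genes. Pf4 (platelet factor 4) averaged 4891 CPM there, and 8 barcodes held 99.0% of all Pf4 UMIs of the removed high-gene barcodes. At least 100 UMIs of the 6 megakaryocyte markers were found in 8 barcodes, of which 1 came from the femur libraries, and the highest had 5163 such UMIs, 5.84% of its total. Of the 11 barcodes with 10 or more of these UMIs, 9 also had 10 or more from the erythroid list. In subset 6, Car2 measured 43.4 and Gata1 35.2 of the 137 CPM of that list, Hba-a1 19.6 CPM, and Klf1 and Alas2 0.457 CPM each. The overlap of the 2 lists thus does not by itself count barcodes of 2 cell types.

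Subset 7, with 38 barcodes, was led by genes that no granulocyte or monocyte list holds. Ctsk (cathepsin K), the bone-resorbing protease of osteoclasts, was 475 times, and Acp5, their tartrate-resistant phosphatase, 354 times as high as in other barcodes. Cxcl12, the chemokine of marrow stroma, was 284 times and Lepr, the leptin receptor of stromal cells, 132 times as high. Since these mark different cells, the subset was not named. At resolution 1.0 it divided mainly into 23 barcodes led by Ctsk, Acp5, Mertk and C1qa and 13 led by Cxcl12, Ibsp, Col1a2 and Lepr. Osteoclast markers were concentrated in a few barcodes, of which 5 had 100 UMIs or more, 4 from femur replicate 3 and 1 from mandible replicate 1. Stromal markers reached 100 UMIs in 15 barcodes, of which 11 were from the femur and 4 from the mandible, and only 1 barcode had 10 or more UMIs of both lists. Mitochondrially encoded transcripts measured 21755 CPM in subset 6, 29661 CPM in subset 7, 30261 CPM in subset 8 and 22990 CPM in subset 9, against 10528 to 16068 CPM in subsets 1 to 5.

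Subset 8, with 21 barcodes, was erythroid-like, with the carbonic anhydrases Car1 and Car2 at 327 and 175 times, the transcription factor Klf1 at 47.6 times and the globin Hba-a1 at 43.7 times. Mki67 was in all 21, at 611 CPM, and Kit was the highest of the subsets at 132 CPM. Its secondary granule share was a median of 0.051%, and it had Itgam UMIs in 11 of 21 barcodes.

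Subset 9, with 17 barcodes, was B-lineage-like, with the surrogate light chain genes Igll1 and Vpreb3 at 73.4 and 69.4 times, the transcription factor Pax5 at 57.8 times and the antigen receptor component Cd79a at 52.9 times. Mki67 measured 679 CPM, and 7 of 17 barcodes had secondary granule transcripts at 1% of UMIs or more while 7 had under 0.2%. Mzb1, a B and plasma cell gene, measured 219 CPM. Jchain, Fcer1a and Dspp were not seen in any of the 480 barcodes, which allows a share of up to 0.625% of barcodes with a UMI of each, and does not limit the share of cells that express it.

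**Figure D2:**
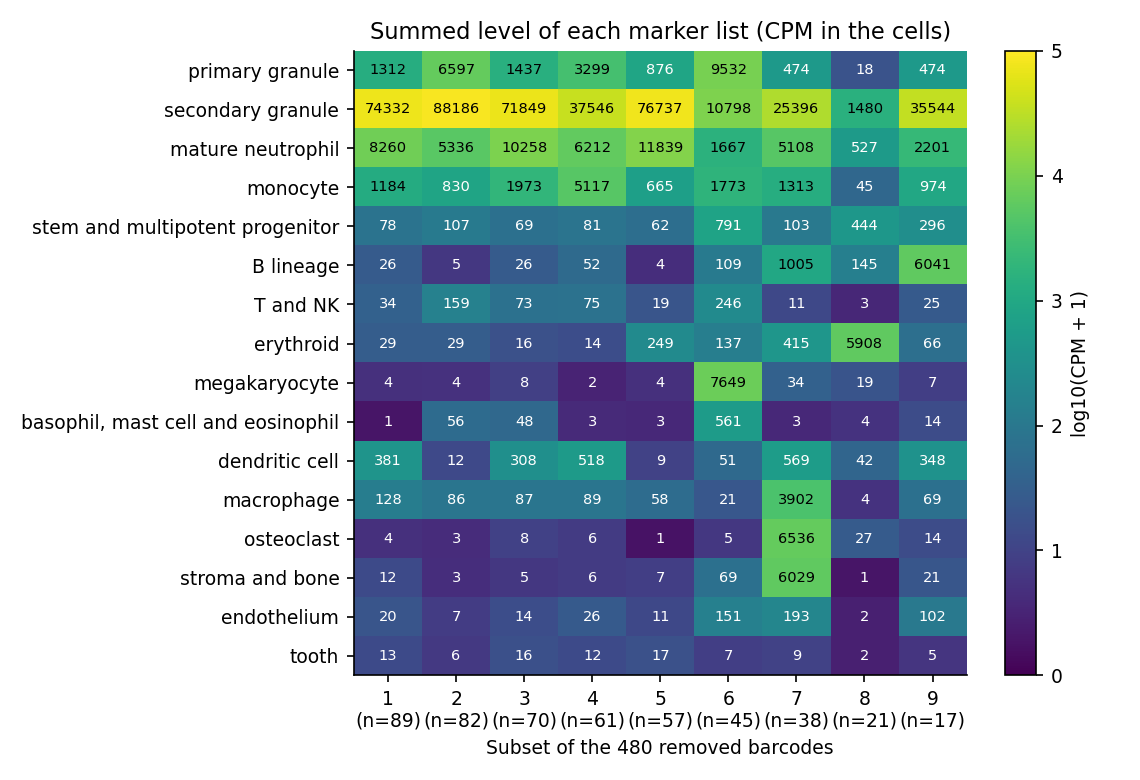
Summed level of each marker list (rows) in each of the 9 subsets (columns), in CPM, printed in each cell and coloured by log10(CPM + 1). Secondary granule transcripts range from 37546 to 88186 CPM in subsets 1 to 5. They stand at 10798, 25396, 1480 and 35544 CPM in subsets 6, 7, 8 and 9. The megakaryocyte list is highest in subset 6, the osteoclast and stromal lists in subset 7, the erythroid list in subset 8 and the B lineage list in subset 9.

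The share of UMIs from the 6 secondary granule genes fell mostly into a high and a low range. It was 1% or more in 379 barcodes and under 0.2% in 83, with 18 in between. Those under 0.2% had a median of 45470 UMIs and 4918 genes after thinning, and those at 1% or more had 60550 UMIs and 4246 genes. The barcodes under 0.2% numbered 6, 25 and 10 in femur replicates 1 to 3 and 6, 19 and 17 in mandible replicates 1 to 3. Femur replicate 2 stood apart, with 25 of 41 barcodes in this range. Camp UMIs were seen in all 480 barcodes, erythroid-like ones included, so low levels of granule RNA were present in every barcode, and its origin was not tested.

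**Figure D3:**
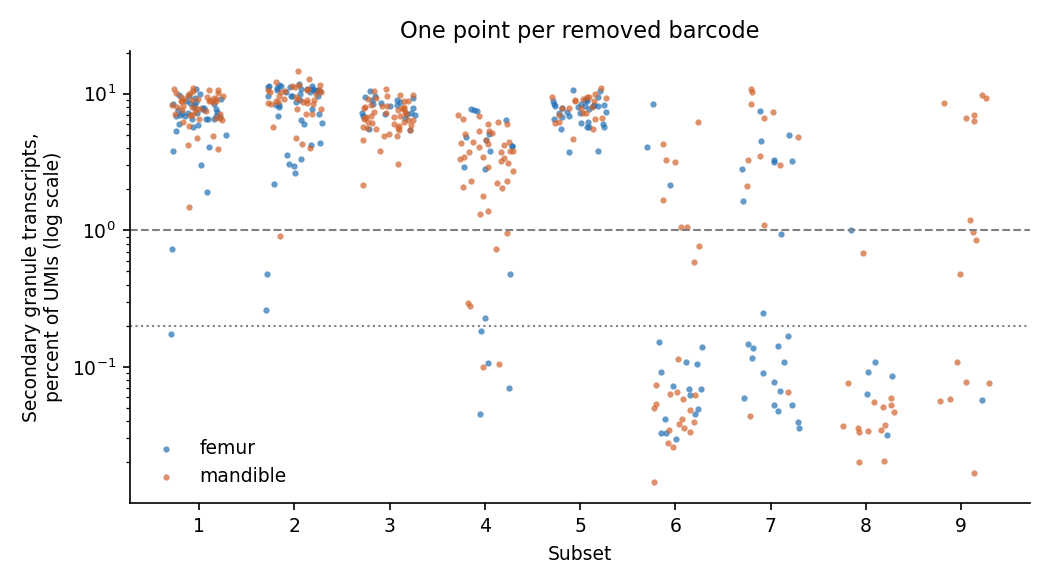
Secondary granule transcripts as a percent of a barcode's UMIs (log scale) for each removed high-gene barcode, by subset; blue points are femur and orange points mandible barcodes, the dotted line is 0.2% and the dashed line 1%. Most barcodes of subsets 1 to 5 lie above 1%, and most of subsets 6 and 8 lie under 0.2%, while subsets 7 and 9 hold both ranges.

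By correlation of log expression with the mean of each deposited cluster of kept cells, 177 barcodes were closest to cluster 4 (cycling precursors), 129 to cluster 5 (monocytes) and 128 to cluster 0 (neutrophils rich in secondary granule genes), with a median best correlation of 0.790. Subset 1 was divided, with 35 of 89 barcodes closest to cluster 0, 25 to cluster 5 and 22 to cluster 4. Subset 2 was closest to cluster 4 in 70 of 82 barcodes, subset 4 to cluster 5 in 49 of 61, and subset 5 to cluster 0 in 49 of 57. Subset 6 was closest to cluster 4 in 39 of 45, and subset 9 to the B cell cluster 6 in 13 of 17. Of the 21 erythroid-like barcodes, 7 were closest to the haemoglobin-rich cluster 8 and 13 to cluster 4. Correlations over genes that share a library and a depth are descriptions.

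The mixture of subsets varied among the libraries of a site. Subsets 1 to 5 made up 85.1%, 43.9% and 83.2% of the removed high-gene barcodes of femur replicates 1 to 3 and 73.7%, 66.3% and 77.8% in mandible replicates 1 to 3. Femur replicate 2 was the lowest, while femur replicates 1 and 3 lay above all 3 mandible libraries, so the femur range spanned that of the mandible. Within subsets 1 to 5 the secondary granule genes summed to 68909, 44567 and 80316 CPM in the femur and to 65677, 69386 and 73726 CPM in the mandible.

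Subset 7, with the osteoclast and stromal genes, held 8, 8 and 9 barcodes in femur replicates 1 to 3 and 4, 3 and 6 in the mandible. As a share this was 13.5% ± 5.46 of femur-derived and 6.07% ± 3.86 of mandibular-derived removed high-gene barcodes (SD, n = 3 libraries each), a mandible minus femur difference of -7.39 percentage points (exact permutation p = 0.2) that had the same sign in all 3 same-numbered pairs. It was -4.36 points without femur replicate 2 and -9.66 to -6.23 points with any other single library left out. Subset 9 held 0, 1 and 0 barcodes in the femur and 1, 3 and 12 in the mandible, or 0.813% ± 1.41 and 4.74% ± 2.74, the only subset with p at the smallest possible value (exact permutation p = 0.1). Its difference of 3.93 points was 2.38 points without mandible replicate 3 and 3.52 to 4.98 points with any other single library left out. The 0 of femur replicate 1 allows a share of up to 4.48% and that of femur replicate 3 up to 2.97%. Monocyte-like subset 4 held 6, 7 and 5 barcodes in the femur and 3, 16 and 24 in the mandible, a mean of 10.3% and 14.5%. The difference of 4.20 points was 1.46 points without mandible replicate 2, 1.51 with femur replicate 3 left out, and it was 7.52 points when mandible replicate 1 was left out and 7.57 points for femur replicate 2. Subset 6, with the highest Mpo, held 10.6% and 10.0%. After adjustment over 9 subsets, every adjusted p lay between 0.75 and 1.

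**Figure D4:**
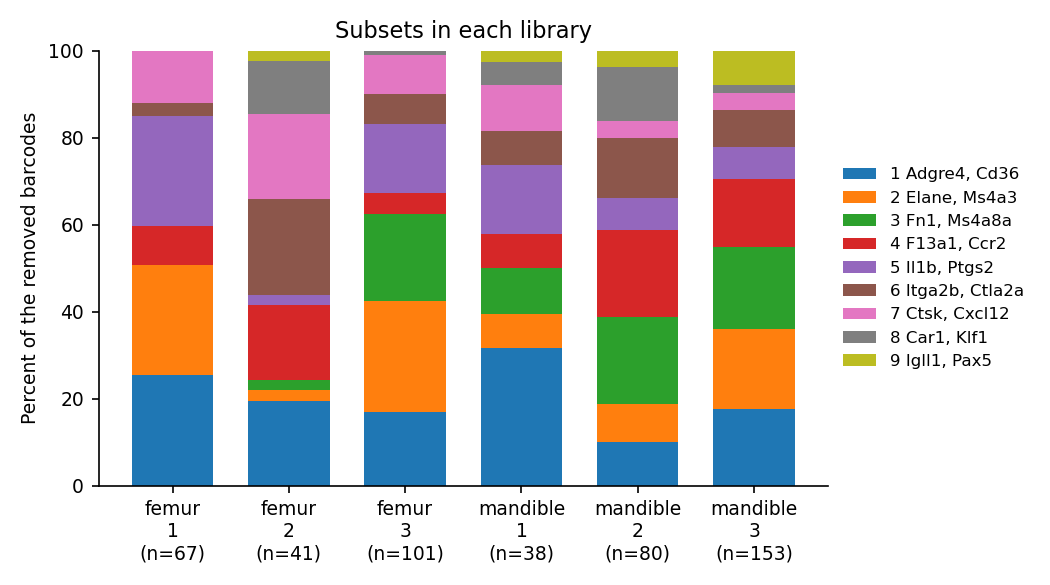
Percent of each library's removed high-gene barcodes in each of the 9 subsets (stacked bars from 0 to 100%), with the barcode number of the library below each bar and 2 leading genes in the legend. Femur replicate 2 has a smaller part in subsets 1 to 5 (43.9%) than the other libraries, whose share ran from 66.3% to 85.1%.

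Barcodes with UMIs from 2 lineage lists were common, and so they were in the neighbouring kept cells. At least 3 UMIs of both the secondary granule and the monocyte list were found in 96.0% of the removed and 99.0% of the kept barcodes. In kept cluster 0, Ly6c2 alone made up 898 of the 928 CPM of the monocyte list. A neutrophil barcode can thus meet both lists, and this share does not count barcodes of 2 cell types. Secondary granule with erythroid UMIs were found in 25.2% and 11.4%, and secondary granule with B lineage UMIs in 22.3% and 9.76%. After thinning these 2 shares were 12.7% against 7.03% and 10.8% against 6.96%. Secondary granule with macrophage UMIs stood at 56.9% and 36.7% as counted and 26.3% and 21.9% after thinning. In kept cluster 1, of mature neutrophils, Adgre1 alone made up 78.7 of the 95.8 CPM of the macrophage list. In subset 1, Bach2 alone made up 20.4 of the 26.4 CPM of the B lineage list. The shares with macrophage and with B lineage UMIs thus need not count barcodes of 2 cell types. The osteoclast and stromal lists met in 4 barcodes (0.833%). Genes of the primary granule and mature neutrophil lists met in 89.6% of the removed and 89.1% of the kept barcodes. Kept cluster 0 by itself held both, with Fcnb at 276, Cebpe at 341 and Retnlg at 4781 CPM beside Mpo at 2.71 CPM. The share thus does not count barcodes that hold 2 stages. Mature neutrophil and G2M genes met in 99.2% of the removed and 97.8% of the kept barcodes. In the kept mature neutrophil clusters 1 to 3 the G2M list summed to 1306 to 1405 CPM, beside Mki67 at 5.22 to 7.99 CPM. That share thus counts neither mixed nor dividing barcodes. Between the sites, none of 10 pairs of lists passed (exact permutation tests, adjusted p = 1 for each).

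The share of barcodes with a Mki67 UMI was 76.1%, 85.4% and 94.1% in femur replicates 1 to 3 and 86.8%, 98.8% and 96.7% in mandible replicates 1 to 3. The means were 85.2% ± 8.97 and 94.1% ± 6.37 (SD, n = 3 per site), 8.93 points apart, and the sites overlapped (exact permutation p = 0.2). The difference was 4.40 points without femur replicate 1 and 13.4 without femur replicate 3, and 6.61 to 12.6 with any other single library left out. Within the 3 pairs of same-numbered libraries the mandible share was higher each time, by 10.7, 13.4 and 2.67 points (exact paired permutation p = 0.25, the smallest that 3 pairs can give). That pairing was inferred from these same data. By subset, it was lowest in subset 7, with 18 of 38 barcodes.

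Other cell types varied strongly between libraries. The megakaryocyte list summed to 12.4, 103 and 2.9 CPM in femur replicates 1 to 3 and to 240, 1777 and 778 CPM in mandible replicates 1 to 3. The sites did not overlap, but 3 barcodes held 77.9% of these UMIs. Barcodes with 100 or more of them numbered 0, 1 and 0 in the femur and 1, 3 and 3 in the mandible. Erythroid genes summed to 262, 1327 and 63.1 CPM in the femur and 366, 688 and 86.8 CPM in the mandible, and the B lineage list to 283, 291 and 31.7 CPM and 252, 269 and 397 CPM. Macrophage markers reached 872 and 1289 CPM in femur replicates 1 and 2 but 106 to 156 CPM elsewhere, and the osteoclast list 1802 CPM in femur replicate 3 and 409 CPM in mandible replicate 1 but at most 33.0 CPM elsewhere. The stromal list was 824, 1288 and 574 CPM in the femur and 422, 113 and 36.1 CPM in the mandible, without overlap. Of 17 marker lists, only the megakaryocyte, stromal and tooth lists lacked overlap between sites, and the list sums were not tested.

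**Figure D5:**
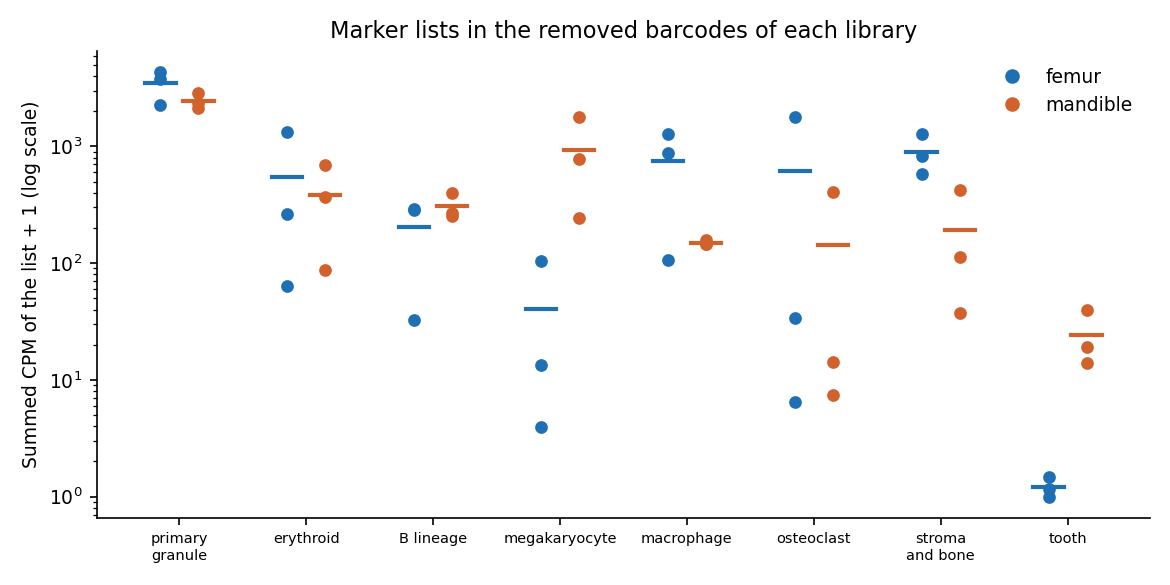
Summed CPM of 8 marker lists plus 1 (log axis) in the removed high-gene barcodes of each library; blue points are femur, orange points mandible libraries, and bars the means of 3 libraries. The megakaryocyte, stromal and tooth lists do not overlap between sites, and the other lists shown do. Of the UMIs of the megakaryocyte list, 77.9% came from 3 barcodes.

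Sums over the removed high-gene barcodes of each library were compared between sites with edgeR. Of 11502 genes, 1 passed a false discovery rate of 0.05 (0.00869%), and 460 (4%) had an unadjusted p under 0.05. The gene was Cadm1 (chromosome 9, 47530173 to 47857637, mm10, plus strand), a cell adhesion molecule. It measured 40.4, 46.8 and 24.4 CPM in femur replicates 1 to 3 and 3.21, 3.51 and 1.97 CPM in mandible replicates 1 to 3, without overlap. The log2 fold change was -3.61 ± 0.30 (SE), with an edgeR adjusted p of 0.0313.

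Cadm1 came almost wholly from subset 7, whose 23 barcodes with a UMI held 441 of the UMIs (95.7%). Within subset 7 it measured 359, 268 and 339 CPM in the femur and 36.8, 94.7 and 46.3 CPM in the mandible, and outside it at most 1.07 CPM in any library. The sum does not separate fewer barcodes of a kind from less RNA per barcode. Counted per barcode over all subsets, a Cadm1 UMI was found in 6, 6 and 9 femur and 1, 6 and 5 mandible barcodes of replicates 1 to 3. It reached 10 or more UMIs in 5, 4 and 5 femur barcodes and in 0, 0 and 0 mandible barcodes. These counts were not tested. Subset 7 itself mixes osteoclast, macrophage and stromal barcodes, with 3 to 9 per library, and the part of its make-up in the Cadm1 difference was not tested. Without subset 7, 0 of 10765 genes passed, with 285 at an unadjusted p under 0.05. The call was lost without each of femur replicates 1 and 2 and mandible replicates 1, 2 and 3 (adjusted p 0.0896 to 0.274), and kept without femur replicate 3 (adjusted p 0.0402), while the log2 fold change stayed between -3.77 and -3.34. A pairing of the libraries by replicate number was inferred from these same data. With that number as a block 16 genes passed (0.139%), 3 higher and 13 lower in the mandible. Cadm1 was among them, at an edgeR adjusted p of 0.0119. The 4 libraries that share a library number in the labels gave 0 calls with that number as a block, with 204 genes at an unadjusted p under 0.05 and Cadm1 at -3.25 (adjusted p 0.638). DESeq2 called 58 genes (0.504%), 13 higher and 45 lower.

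Whether genes of other cell types were called depended on the fit. Itga2b was higher in the mandible by 4.89 ± 1.05 on the log2 scale, which missed the threshold in edgeR (adjusted p 0.858), and it passed with DESeq2 (adjusted p 0.0229) but not with the replicate block in edgeR (adjusted p 0.0628). Gp9, a platelet glycoprotein, had 5.11 ± 0.94 (edgeR adjusted p 0.701), and passed with the replicate block (adjusted p 0.0487) and with DESeq2 (adjusted p 8.29e-05). Both also passed edgeR without the filter on low counts (adjusted p 0.0176 for Itga2b and 0.0148 for Gp9). Pf4, at 4.64 ± 1.30, passed none of these (adjusted p 0.972 with edgeR, 0.169 with the block, 0.156 with DESeq2 and 0.0589 without the filter). Without femur replicate 2 the edgeR values were 7.08 for Pf4 and 6.09 for Itga2b, and with another library left out Pf4 stood at 4.09 to 5.03 and Itga2b at no more than 5.38. For Gp9, leaving out a library gave 4.14 to 5.59. C1qa, a complement gene of macrophages, had -2.23 ± 0.63 (edgeR adjusted p 0.972), and passed with DESeq2 (adjusted p 0.0380) but not with the block (adjusted p 0.681). Without subset 7 it stood at -0.0115, with an edgeR adjusted p of 0.9999. Amelx, the amelogenin of tooth enamel, measured 0, 0.478 and 0.162 CPM in the femur and 31.2, 10.5 and 15.9 CPM in the mandible, in 80 barcodes spread over all 9 subsets, and had an edgeR adjusted p of 0.182. Its log2 fold change was 6.66 ± 0.78 (SE). With the replicate number as a block its edgeR adjusted p was 0.0450, and within subsets 1 to 5 it was 0.0192. It also passed with DESeq2 (adjusted p 8.69e-06) and in edgeR without the filter (adjusted p 0.000414). With the library number as a block it did not (edgeR adjusted p 0.343). The tooth list summed to at most 39.0 CPM in the removed high-gene barcodes of any mandible library and, in replicates 1 to 3, to 18.9, 14.3 and 1534 CPM in their neighbouring kept cells, of which 0.623% over all 6 libraries had 10 or more tooth UMIs.

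Pathway genes were also compared, with 133 of 136 tested and 0 called by edgeR or DESeq2, and 4 of them at an unadjusted p under 0.05, beside 4% of all genes tested. The 20 G2M genes had a median log2 fold change of -0.11, and the S phase genes, among them the replication clamp Pcna, 0.11. Of 18 ribosome biogenesis and MYC target genes, such as Npm1 and Ncl, 17 lay above 0, with a median of 0.12. All 12 mitochondrially encoded genes lay below 0, with a median of -0.40, and the median mitochondrial share was 2.59% of UMIs in femur replicate 2 against 0.940% to 1.61% in the other libraries. The part of that library in the difference was not tested. The transcription factors Spi1, Runx1 and 11 others had a median of 0.04. Interferon response genes had a median of -0.24 and the inflammatory cytokine list, 0.20, with 7 of 11 genes above 0. Il1b was the lowest of that list at -1.36, with 868 CPM in femur replicate 1 and 113 to 309 CPM in the other 5 libraries, and Nfkbiz the highest at 0.52. By subset, Npm1 was 2631 CPM in erythroid-like subset 8, 1766 CPM in B-lineage-like subset 9 and 1559 CPM in subset 6, but at most 284 CPM in subsets 1 to 5 and 7.

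Subset 1 was the only subset with 10 or more barcodes in 2 libraries of each site, femur replicates 1 and 3 and mandible replicates 1 and 3. Of 7488 genes, 5 passed (0.0668%), all lower in the mandible, and 328 (4.38%) had an unadjusted p under 0.05. DESeq2 called 10 (0.134%). At resolution 1.0 subset 1 divided into parts of 45, 25 and 19 barcodes. In femur replicates 1 and 3 and mandible replicates 1 and 3, the part of 45 held 2, 9, 3 and 21 barcodes. The part of 25 held 5, 8, 6 and 5, and the part of 19 held 10, 0, 3 and 1. Cd244a was among the leading genes of the part of 25. The part of this make-up in the calls was not tested. Hspa1a, an inducible heat shock protein, measured 58.9 and 66.5 CPM in the femur and 2.54 and 1.17 CPM in the mandible (chromosome 17, 34969190 to 34972156, minus strand), at -5.12 ± 0.51 on the log2 scale (SE, adjusted p 0.0025 by edgeR). Hspa1b, its near-identical neighbour (chromosome 17, 34956436 to 34959238, minus strand), measured 88.0 and 54.0 CPM against 12.7 and 2.34 CPM, at -3.46 ± 0.52 (edgeR adjusted p 0.0478). Reads of these 2 copies can be split between them, so their separate values are uncertain. With DESeq2 size factors in edgeR, Hspa1b, Cd244a and Wfdc17 missed the threshold (adjusted p 0.0541 for each).

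The other 3 genes called in subset 1 were Ifitm1, Cd244a and Wfdc17. Ifitm1, an interferon-induced membrane protein (chromosome 7, 140967221 to 140969825, plus strand), measured 257 and 253 CPM in the femur and 48.3 and 62.7 CPM in the mandible, at -2.13 ± 0.29 (edgeR adjusted p 0.0410). Cd244a, a receptor of the signalling lymphocyte activation family (chromosome 1, 171559193 to 171609746, plus strand), measured 96.5 and 64.4 CPM against 17.8 and 18.2 CPM, at -2.08 ± 0.31 (edgeR adjusted p 0.0478). Wfdc17, a whey acidic protein domain gene of myeloid cells (chromosome 11, 83703991 to 83706268, plus strand), measured 174 and 249 CPM against 22.9 and 46.3 CPM, at -2.51 ± 0.39 (edgeR adjusted p 0.0478). With the replicate number as a block 23 genes passed (0.307%), 5 higher and 18 lower, and they included all 5. In Mpo, which was low in this subset, the change was -2.31 on the log2 scale (edgeR adjusted p 0.0769), and it passed with the block at -2.37 (adjusted p 0.000322) and with DESeq2 (adjusted p 0.0069). The female library was 1 of the 2 femur libraries. Leaving out a library left a lone library at its site, so effect sizes alone are given. Without femur replicate 3 the lone femur library was the female one, against 2 male mandible libraries, so site and sex cannot be told apart there. With any single library left out, Ifitm1 lay between -2.37 and -1.92 on the log2 scale and Cd244a between -2.20 and -1.89. Without femur replicate 1, Wfdc17 was at -2.81, and without femur replicate 3 at -2.02. Hspa1b was at -4.74 without mandible replicate 1 and -2.42 without mandible replicate 3, and Wfdc17 at -2.11 and -3.20. Hspa1a lay between -5.53 and -4.54 with any single library left out.

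Whether the site difference in the removed high-gene barcodes differed from that in the neighbouring kept cells was tested with limma on the difference in log2 CPM within each library. None of 11502 genes passed, and 425 (3.7%) had an unadjusted p under 0.05. Cadm1 differed between sites by a log2 fold change of -1.89 in the neighbouring kept cells, and the difference of the 2 contrasts was -1.64 ± 0.91 (limma adjusted p 0.999). For Pf4 it was 6.50 (limma adjusted p 0.720) and for Itga2b 5.35 (limma adjusted p 0.678).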

How the data were processed

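Single-cell 3' RNA sequencing had been performed on 6 CD11b-selected libraries. The deposited matrices give, for each gene in each barcode, the raw UMI counts from CellRanger (7.0.1 in the study's methods and processing notes, 7.1.0 in the matrix header) run on mm10. The metadata deposited by the authors gives counts of UMIs and genes, the mitochondrial share in percent, and the cluster and other labels of each kept cell, for cells with 600 to 6000 genes and at most 20 percent mitochondrial UMIs. The deposited marker table, with log2 fold changes and p-values of the authors' own cluster comparisons, was not used.

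The members and the gene lists were chosen with earlier results of these data known. The 480 barcodes were normalised to 10000 UMIs and clustered in scanpy 1.11.5 (Python 3.11.15) on 2000 variable genes, 20 principal components and 15 neighbours, by Leiden at resolution 0.5. Folds between subsets used CPM plus 5. Subsets were named by markers among the leading genes. UMIs were summed per library and tested with edgeR 4.0.16 (R 4.3.3; TMM, filterByExpr, quasi-likelihood, false discovery rate 0.05), and with limma 3.58.1 (prior count 2) and DESeq2 1.42.0. Shares were compared by 2-sided exact permutation over 20 assignments, adjusted by Benjamini-Hochberg, with scipy 1.17.1. The gene tests were tested on simulated data. Intervals and limits on 0 counts (3 counts) cover counting error only. Whether counting used the strand is not given in the sources used here.

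Genes named were the 4 given markers, Itgam, the 4 highest of each marker list and those at 0, the 3 highest of each pathway list, the leading genes of each subset, and up to 5 rises and falls per site comparison past a false discovery rate of 0.05 without overlap and with at least 10 CPM, sex-linked genes left out. From these lists the text gives those its comparisons turn on. Cadm1 by subset, Cd34, Gp9, Amelx by block and the subset divisions were chosen after their values were seen. Positions are 1-based, from GENCODE vM21 on mm10. Deviations of same-numbered libraries from their site means correlated at 0.232, 0.414 and 0.331, so the replicate numbers were taken to pair the libraries. Those that share a library number correlated at -0.049 and -0.114. The choice thus rests on these same data, and it joins the female femur replicate 1 with the male mandible replicate 1. Alternatives were other size factors, DESeq2, no filter on low counts, other gene limits, other resolutions, thinned counts, other UMI minimums, replicate blocks and leaving out each library. Pairing shares by title number, leaving out subset 7, keeping subsets 1 to 5, and including the 3 kept cells at the limit were added after seeing the data.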

Additional observations from a re-analysis of the deposited data

How the results depend on the processing

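With 3 libraries per site, no exact test of a share can pass a threshold under 0.10, so stability of these p-values says nothing, and the counts of genes rest on few libraries. Of 506 alternative values, 409 kept their direction and their side of the threshold or moved little, 42 changed direction, 23 gained and 13 lost significance, and 19 counts or shares moved. The cause was not tested for any of them. Pairing the libraries by title number, added after seeing the data, left each share with an exact p of 0.25 or more and changed no call among the shares. The direction of the difference in the share of removed high-gene barcodes and of Cadm1 was kept in every alternative run for it. Leaving out mixed barcodes could not be run, because all 480 held 3 or more UMIs of both lists of at least 1 pair.

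For genes that differ between sites over all removed high-gene barcodes, against 1 in the edgeR fit, DESeq2 called 58, the fit without a filter on low counts 14, the fit with the replicate block by title number 16 and the one by library number, in 4 libraries, 0. Without subset 7 it was 0, and leaving out a library in turn gave 0 to 7, the highest without femur replicate 3. In subset 1, against 5, DESeq2 size factors in edgeR gave 2, DESeq2 10, no filter 46 and the replicate block by title number 23, and leaving out a library gave 16 to 133. That last step leaves a lone library at a site, which is assumed to vary like the others. Cadm1 lost its call with the library-number block (log2 fold change -3.25, adjusted p 0.638) and with 7000 genes or more (-5.04, adjusted p 0.110), against -3.61 in the edgeR fit of all. The library number could not be fitted as a block in subset 1. The test against the neighbouring kept cells gave 0 under each of its alternatives. Single genes changed sign for Mki67 with 7000 genes or more (log2 fold change 0.14), C1qa in subsets 1 to 5 (0.0202), and Cxcl12 without subset 7 (0.75). For Itgam, leaving out a library gave -0.0853 to 0.642.

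Differences in the share of a subset, in percentage points of mandible minus femur, changed sign as follows. Subset 1 stood at 4.60 with resolution 1.0, 10.4 with thinned counts and 2.62 with the library-number replicate block. Subset 4 was -0.559 with thinned counts, subset 5 was 2.50 with that block, and at resolution 0.3 subset 6 was 3.35 and subset 7 was 9.80. Leaving out a library gave -6.75 to 4.04 for subset 1, -10.4 to 1.02 for subset 5, -4.39 to 5.09 for subset 6 and -0.783 to 6.08 for subset 8. With the sign kept it gave -13.9 to -2.26 for subset 2, 5.37 to 15.3 for subset 3, 1.46 to 7.57 for subset 4, -9.66 to -4.36 for subset 7, 2.38 to 4.98 for subset 9 and 4.40 to 13.4 for the share with a Mki67 UMI.

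For barcodes with UMIs of 2 lists, secondary granule with B lineage stood at 3.49 points with at least 1 UMI, and with erythroid at -0.954 with at least 10. Primary granule with mature neutrophil was 0.560, 7.28 and 3.37 with at least 1 UMI, at least 10 and thinned counts. Mature neutrophil with G2M was -2.81 with at least 10 UMIs and -0.0305 with the library-number block, and monocyte with B lineage was 3.09 with at least 1. Leaving out a library gave -4.04 to 1.78 for secondary granule with monocyte, -11.7 to 6.53 with B lineage, -5.91 to 13.3 with erythroid and -1.35 to 1.39 with megakaryocyte. It gave -7.35 to 3.59 for primary granule with mature neutrophil, -8.12 to 5.26 with monocyte, -0.0871 to 1.31 for mature neutrophil with G2M, and -12.7 to 5.48 for monocyte with B lineage.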
